A study of Mus musculus with 9 samples.

Results

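Interferon-stimulated genes are genes that cells switch on when interferon reaches them. A list of 33 such mouse genes, divided by role into 5 sensors, 11 regulators and 17 effectors, was followed across 3 epithelial cell lines. Each gene was represented by the brightest probe set that carries its symbol alone, and 31 of the 33 could be read in this way, among 18193 genes on the array. The probe set of Isg15 carries more than 1 symbol and was not assigned, and Ifi44 was not analysed here. The wild-type line (WT-NLE) is a non-tumorigenic line from the trachea of a 3-week-old Gprc5a wild type mouse. The knockout line (NULL-NLE) was cultured in the same way from a Gprc5a knockout mouse of that age, and Gprc5a is a lung tumour suppressor. The tumour line is MDA-F471, lung adenocarcinoma cells from a female Gprc5a-knockout mouse 16 months after injection of NNK, a carcinogen of tobacco smoke. All of these mice were of mixed C57/BL6 x sv129 background. Total RNA from each line was measured on 3 Affymetrix MG-430 2.0 arrays, and no sample was treated with interferon or infected, as far as the labels say. Each group is 1 line, so the genotype, the line and its handling cannot be told apart, and the tumour line differs from the others also in organ, carcinogen exposure and age of the mouse. It is not stated whether arrays of a line came from separate cultures, so p-values reflect array-to-array spread, which may be technical.

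As background, cells sense foreign nucleic acid with helicases, kinases and synthetases, and the resulting signal induces interferons. Type I interferon binds the receptor Ifnar1 and Ifnar2, and the kinases Jak1 and Tyk2 then activate a complex containing Stat2 and Irf9 that binds the interferon-stimulated response element (ISRE). Interferon gamma binds Ifngr1 and Ifngr2 and works mainly at the gamma-activated site (GAS), and many of the sensors, regulators and effectors are themselves induced in this way.

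Promoters are shown for the effectors whose signals differed most between the lines. RefSeq sequences on GRCm38.p6, running from 250 bases before to 50 bases after each start site, were found for 24 of the 31 members. They were searched on both strands for the ISRE core, which is GAAA, any 2 bases and again GAAA, and the GAS core TTCNNNGAA, overlapping matches included. Capitals mark matches to the ISRE core on either strand, and each sequence is written along the strand of its gene. Oasl2, at chr5:114896684-114896983 on the plus strand, is the effector with the largest signal difference between knockout and wild-type cells, although its knockout arrays were at background, and Ifitm3, at chr7:141010695-141010994 on the minus strand, has the largest difference in both tumour comparisons. Ifit1, at chr19:34640639-34640938 on the plus strand, was added for comparison after its values were seen. Between knockout and wild-type cells it differed nearly as much as Oasl2 (log2 differences of -2.39 and -2.40), with knockout arrays above background. Ifitm2, at chr7:140955912-140956211 on the minus strand, and Ifitm1, at chr7:140967826-140968125 on the plus strand, were also added after their values were seen.
Oasl2: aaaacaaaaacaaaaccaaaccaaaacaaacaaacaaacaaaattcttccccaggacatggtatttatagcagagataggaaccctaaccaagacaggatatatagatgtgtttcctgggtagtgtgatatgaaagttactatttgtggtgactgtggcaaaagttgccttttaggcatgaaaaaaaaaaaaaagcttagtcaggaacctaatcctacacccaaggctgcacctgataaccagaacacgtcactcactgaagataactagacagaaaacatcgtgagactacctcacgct
Ifit1: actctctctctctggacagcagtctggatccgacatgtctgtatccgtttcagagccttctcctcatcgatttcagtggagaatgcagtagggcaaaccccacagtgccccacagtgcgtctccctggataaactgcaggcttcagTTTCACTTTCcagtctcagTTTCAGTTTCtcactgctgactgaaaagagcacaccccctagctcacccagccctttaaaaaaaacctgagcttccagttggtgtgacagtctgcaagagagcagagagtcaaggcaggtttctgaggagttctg
Ifitm3: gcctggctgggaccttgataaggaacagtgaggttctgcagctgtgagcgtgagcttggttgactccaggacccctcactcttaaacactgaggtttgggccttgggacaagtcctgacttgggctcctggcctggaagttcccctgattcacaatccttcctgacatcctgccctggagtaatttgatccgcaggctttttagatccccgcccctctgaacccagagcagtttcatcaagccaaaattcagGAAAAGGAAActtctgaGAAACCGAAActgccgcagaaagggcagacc
Ifitm2: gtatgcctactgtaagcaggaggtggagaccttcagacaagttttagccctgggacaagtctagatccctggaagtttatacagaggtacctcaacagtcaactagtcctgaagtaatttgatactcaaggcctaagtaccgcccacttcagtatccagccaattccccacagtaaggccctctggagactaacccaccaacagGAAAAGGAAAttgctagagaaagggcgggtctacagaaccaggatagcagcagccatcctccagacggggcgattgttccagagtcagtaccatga
Ifitm1: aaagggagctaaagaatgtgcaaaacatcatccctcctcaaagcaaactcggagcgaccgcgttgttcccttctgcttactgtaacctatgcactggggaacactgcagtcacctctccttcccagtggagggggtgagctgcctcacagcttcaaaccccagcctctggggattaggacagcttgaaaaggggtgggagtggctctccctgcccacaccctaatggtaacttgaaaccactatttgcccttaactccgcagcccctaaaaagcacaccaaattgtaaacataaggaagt
Ifit1 holds 2 ISRE matches before its start, Ifitm3 holds 2 after its start, and Ifitm2 holds 1 before its start. In Oasl2 and Ifitm1 these letters were not found in the window. The ISRE core was found in 13 of 24 members (54.2%) and in 3.99% of all 27025 genes of the table. By role, it was found in 3 of 3 sensors, 1 of 8 regulators and 9 of 13 effectors. The GAS core was found in 7 of 24 members (29.2%) and in 9.55% of all genes. Members with and without the ISRE core fell in tumour cells: of the 11 members called lower against wild-type cells whose promoter was found, 6 hold it. These matches are letters in a window, and binding was not measured.

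The arrays had been brought to a common scale before deposit, with array medians of the log2 signal between 6.28 and 6.34. Gprc5a read 8.63, 8.74 and 8.32 on the wild-type arrays, 7.20, 7.09 and 7.18 on the knockout arrays and 6.96, 7.02 and 7.09 on the tumour arrays, and whether its probe set lies in the deleted part is not known here. The epithelial markers Epcam and Cdh1 were above background on all arrays of the 3 lines. Other epithelial markers differed widely: of 10 in the list, 2 were higher and 2 lower in knockout against wild-type cells, and 5 were higher and 3 lower in each tumour comparison. The basal markers Krt5 (means of 14.46, 14.38 and 8.43 for wild-type, knockout and tumour cells), Krt14 (14.52, 14.68 and 7.25) and Trp63 (12.05, 10.69 and 4.32) were called lower in tumour cells against both others, while Krt8, Krt18, Krt7, Krt19 and Cldn7 were higher. The difference between the 3' and 5' probe sets of beta-actin, a measure of RNA integrity, was 0.75, 1.09 and 1.78 on the wild-type arrays, 0.90 to 0.95 on the knockout arrays and 0.37 to 0.74 on the tumour arrays. The hybridisation control BioB-M was dimmer for tumour cells (7.60 to 8.24) than for the tracheal lines (8.32 to 9.48). The part of these marker and technical values in the results was not tested, nor was sharing of signal between relatives such as the Ifitm, Gbp and Oas genes. A background floor was set at a log2 signal of 5.15, the 95th percentile of 27 Bacillus subtilis control probe sets, of which the brightest reached 5.96. Where arrays of the dimmer line lay under the floor, they were set at it and the fold is given as "at least". Where all arrays of both lines did, no fold is given. The log2 differences and p-values are of the signals as deposited, so they rest in part on background in these cases.

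The 31 genes tended towards the order wild-type line, knockout line, tumour line. The mean log2 signal was highest in wild-type cells for 22 of 31 genes (71.0%), against 32.1% of all genes, and lowest in tumour cells for 23 (74.2%), against 38.6%. For 19 genes it declined in the full order from wild-type through knockout to tumour line. As the members were chosen with earlier results of these data known, these shares and those below are a description, not a test. The median over the 31 genes was 7.45 to 7.54 on the wild-type arrays, 6.82 to 6.90 on the knockout arrays and 6.37 to 6.58 on the tumour arrays. No array of a line overlapped with those of another in this median. In RNA from whole cultures, fewer cells that express a gene and less RNA per cell cannot be told apart. The other 12 genes had other orders, among them Ifitm3 (highest in knockout cells) and Usp18 and Mx1 (highest in tumour cells).

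**Figure D1:**
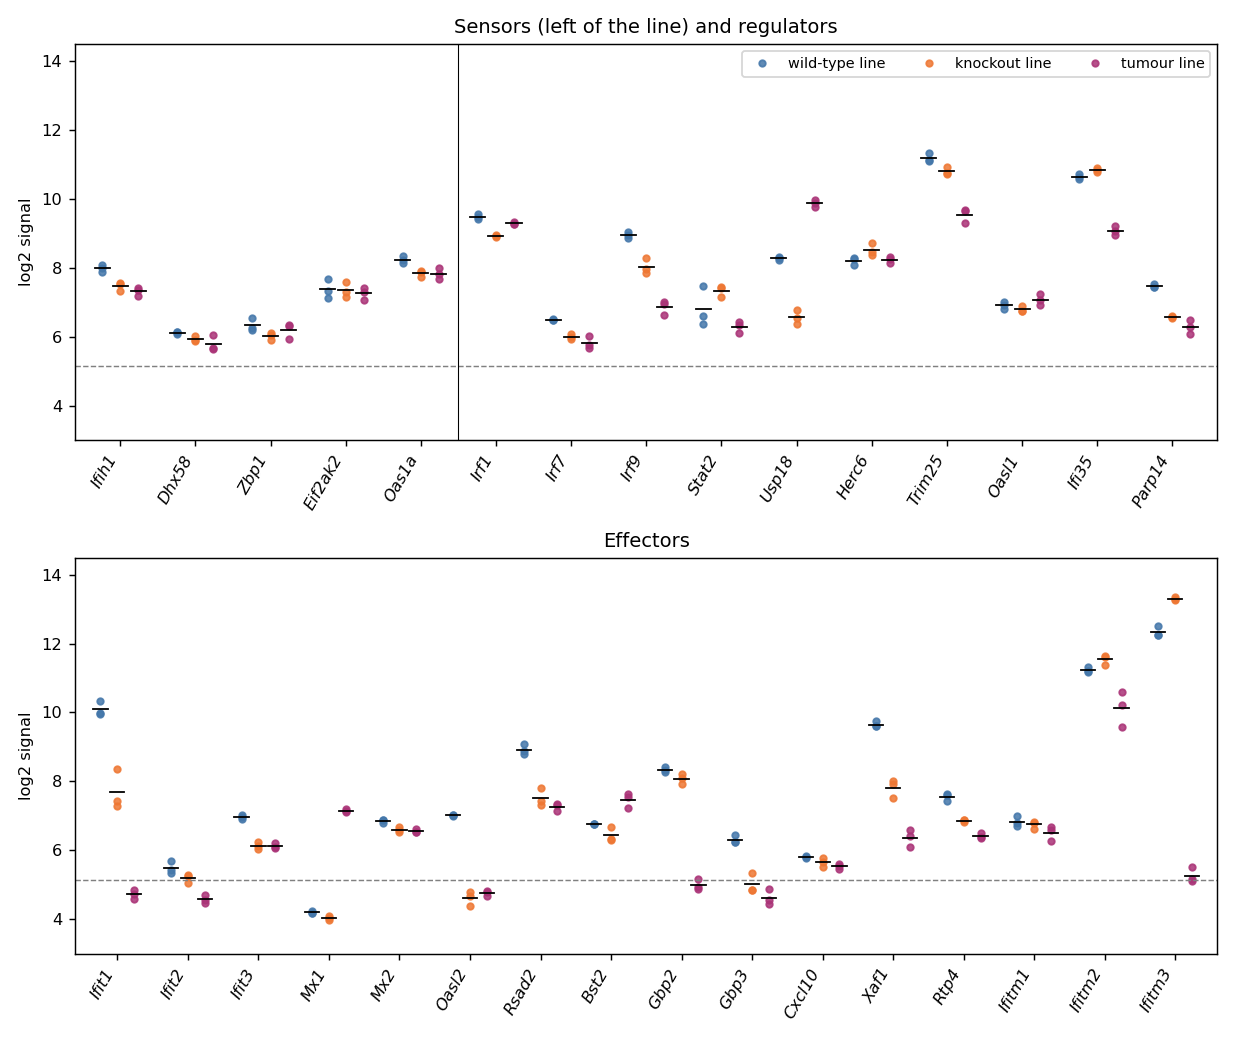
Log2 signal of the 31 interferon-stimulated genes on each of the 9 arrays, with sensors and regulators in the upper panel and effectors in the lower. Points are arrays, short bars are means of 3 arrays per line, and the dashed line is the background floor of 5.15. The tumour arrays of Ifitm3 lie between 5.10 and 5.50, far below the other lines, while Usp18 and Mx1 are highest in tumour cells.

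A gene was called changed when its adjusted p (limma, Benjamini-Hochberg over 18193 genes) was under 0.05 and its difference at least 2-fold. Between the knockout and wild-type lines, 0 of 31 members rose and 6 fell, all of them regulators or effectors. The share called lower was 19.4% of the members, against 2.98% of all genes, and 1.9% of all genes were called higher. At an unadjusted p under 0.05, limma gave 3 members higher and 20 lower, where 14.3% of all genes were higher and 20.7% lower. The arrays of the lines did not overlap for 27 members (87.1%), against 39.1% of all genes. The median difference was -0.33 over the members and -0.0042 over all genes, and averaging all probe sets of a gene gave -0.28 for the members.

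Between the tumour and knockout lines, 3 members rose, 9 fell and 19 were not called. The share called lower was 29.0%, against 6.38% of all genes, and the share called higher was 9.68%, against 7.79% of all genes. Arrays did not overlap for 18 members (58.1%), against 52.3% of all genes, which is close to the background. The median difference was -0.24 over the members and 2.7e-05 over all genes, and averaging all probe sets of a gene gave -0.12.

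Between the tumour and wild-type lines, 2 members rose, 13 fell and 16 were not called. The share called lower was 41.9%, against 8.46% of all genes, and the share called higher was 6.45%, against 8.09% of all genes. Arrays did not overlap for 26 members (83.9%), against 54.7% of all genes, and the median difference was -0.67 over the members and 0.01 over all genes. These 3 comparisons share arrays and are not independent of each other. In all, 17 of 31 members were called in at least 1 comparison and 14 in none.

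**Figure D2:**
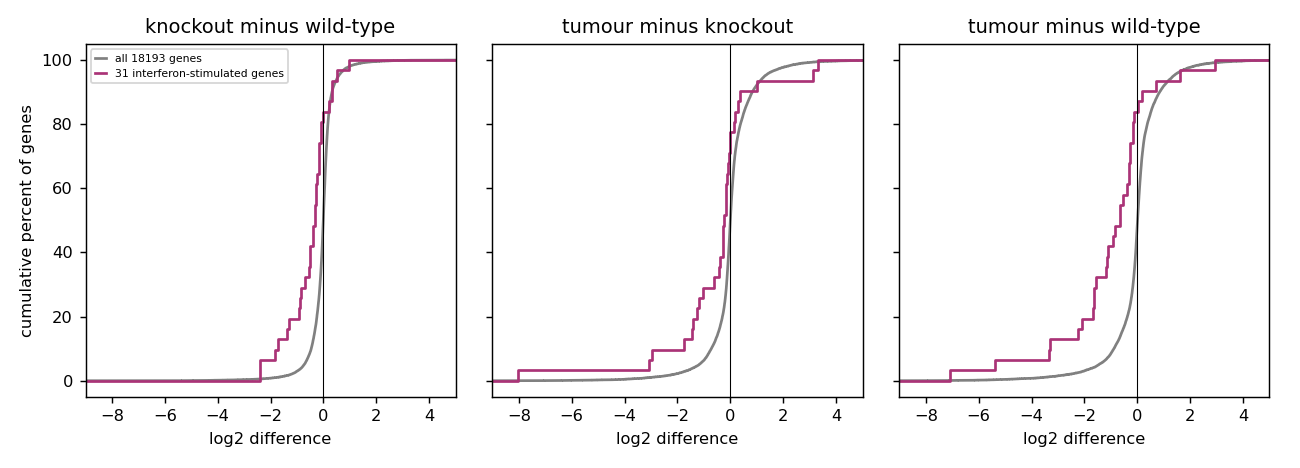
Cumulative percent of genes (vertical axis) at or below each log2 difference (horizontal axis) in the 3 comparisons, for the 31 interferon-stimulated genes and for all 18193 genes. The horizontal axis leaves out the few genes beyond its ends. The line of the members runs left of that of all genes over most of its length, and its medians are -0.33, -0.24 and -0.67.

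None of the 5 sensors was called in any comparison. Over all genes 4.88%, 14.2% and 16.6% were called in the 3 comparisons, so with 5 genes this count is not read as a trait of sensors. With limma at an unadjusted p under 0.05, 0 sensors were higher and 3 lower in knockout against wild-type cells, 0 and 0 in tumour against knockout cells, and 0 and 3 in tumour against wild-type cells. At that threshold 14.3% of all genes were higher and 20.7% lower in knockout against wild-type cells. These shares were 26.2% and 23.2% in tumour against knockout cells, and 26.4% and 25.5% in tumour against wild-type cells. The sensors' median differences were -0.31, -0.10 and -0.32 in the same order.

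Ifih1, which encodes the RNA helicase MDA5, had log2 signals of 7.87, 8.0 and 8.09 on the wild-type arrays, 7.32, 7.54 and 7.56 on the knockout arrays and 7.36, 7.18 and 7.41 on the tumour arrays. All wild-type arrays lay above the rest, and the knockout and tumour arrays overlapped. Against wild-type cells, its difference was -0.51 ± 0.10 (SE, adjusted p = 0.00154, limma) in knockout cells and -0.67 ± 0.10 (adjusted p = 5.61e-05, limma) in tumour cells, short of 2-fold. Oas1a, a synthetase that makes the activator of RNase L when it binds double-stranded RNA, read 8.22, 8.14 and 8.33 in wild-type cells, 7.74, 7.87 and 7.90 in knockout cells and 7.68, 8.0 and 7.82 in tumour cells. Again the wild-type arrays stood above the others, and the difference from them was -0.39 ± 0.10 for knockout cells (adjusted p = 0.00937, limma) and -0.40 ± 0.10 for tumour cells (adjusted p = 0.00432, limma).

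Dhx58, which encodes the helicase LGP2, a modulator of Ifih1, read 6.09, 6.12 and 6.12 in wild-type cells, 5.91, 6.03 and 5.88 in knockout cells and 5.67, 6.04 and 5.65 in tumour cells. The wild-type arrays were the highest by a small margin, and the other lines overlapped. Its differences were -0.17 for knockout minus wild-type, -0.16 for tumour minus knockout and -0.32 for tumour minus wild-type cells, with SE 0.11. Zbp1, a sensor of Z-form nucleic acid, read 6.20, 6.55 and 6.25 in wild-type cells, 6.06, 5.90 and 6.11 in knockout cells and 6.31, 6.33 and 5.92 in tumour cells. The tumour arrays overlapped with those of both other lines, and the differences were -0.31, 0.16 and -0.15 in the same order, with SE 0.13. Eif2ak2, the kinase PKR that halts translation on double-stranded RNA, read 7.67, 7.34 and 7.13 in wild-type cells, 7.60, 7.31 and 7.16 in knockout cells and 7.31, 7.05 and 7.42 in tumour cells. Its arrays overlapped in every pair of lines, and its differences were -0.02, -0.10 and -0.12 with SE 0.15.

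Among the 10 regulators, Usp18 was called in every comparison. Usp18 removes the ubiquitin-like modifier Isg15 from proteins and blocks signalling at Ifnar2. Its log2 signals were 8.21, 8.29 and 8.32 in wild-type cells, 6.77, 6.55 and 6.36 in knockout cells and 9.77, 9.97 and 9.88 in tumour cells. The 3 lines did not overlap, with knockout cells lowest and tumour cells highest. Usp18 was 3.28-fold lower in knockout than in wild-type cells (-1.72 ± 0.11, adjusted p = 1.82e-08, limma). In tumour cells it was 9.95-fold higher than in knockout cells (3.31 ± 0.11, adjusted p = 3.17e-12, limma) and 3.03-fold higher than in wild-type cells (1.60 ± 0.11, adjusted p = 8.56e-09, limma). Of the 10 regulators, 0 rose and 1 fell in knockout against wild-type cells, and 1 rose and 4 fell in each tumour comparison.

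Irf9, the DNA-binding part of the complex that carries the type I interferon signal, read 8.86, 9.03 and 8.95 in wild-type cells, 7.95, 7.86 and 8.28 in knockout cells and 6.96, 6.62 and 7.02 in tumour cells. The lines formed 3 separate steps. Tumour cells lay 4.24-fold below wild-type cells (-2.09 ± 0.13, adjusted p = 2.64e-09, limma) and 2.25-fold below knockout cells (-1.17 ± 0.13, adjusted p = 1.88e-06, limma). Between the knockout and wild-type lines the difference of -0.92 ± 0.13 was just short of 2-fold, and it passed, at -1.04, without knockout replicate 3.

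Stat2, the partner of Irf9 in that complex, was called lower in tumour than in knockout cells (-1.05 ± 0.21, adjusted p = 0.000725, limma), with means of 6.29 and 7.34. This call was lost without knockout replicate 3 (-0.99) or without tumour replicate 2 (-0.95). The wild-type arrays of Stat2 spanned 6.37 to 7.48, brightest on replicate 1 and dimmest on replicate 3, and overlapped with both other lines. On these arrays the beta-actin difference given above was lowest on replicate 1 and highest on replicate 3, and its part in Stat2 was not tested.

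Ifi35, a protein that binds the signalling adaptor Nmi, read 10.57, 10.64 and 10.73 in wild-type cells, 10.79, 10.83 and 10.91 in knockout cells and 8.95, 9.22 and 9.06 in tumour cells. It stood well apart in tumour cells alone, at 3.41-fold below knockout cells (-1.77 ± 0.10, adjusted p = 8.62e-10, limma) and 2.97-fold below wild-type cells (-1.57 ± 0.10, adjusted p = 2.70e-09, limma). Trim25, a ubiquitin ligase that acts on the sensor RIG-I, had means of 11.18, 10.80 and 9.53 for wild-type, knockout and tumour cells. It fell in tumour cells by 1.27 on the log2 scale against knockout cells and by 1.65 against wild-type cells. Both Trim25 calls were lost when its 3 probe sets were averaged (-0.66 and -0.85), and the former also without probe sets that may cross-hybridise (-0.81). Parp14, an ADP-ribosyltransferase, had means of 7.47, 6.57 and 6.28 and was called lower in tumour than in wild-type cells (-1.20 ± 0.10, adjusted p = 1.36e-07, limma), a call lost when its probe sets were averaged (-0.51). Its arrays did not overlap in any comparison, and knockout cells differed from wild-type cells by -0.90 ± 0.10, short of 2-fold.

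The remaining regulators were not called. Irf1, a transcription factor induced early by interferon gamma, had means of 9.48, 8.93 and 9.30. It was lowest in knockout cells, by -0.55 ± 0.08 against wild-type cells (adjusted p = 0.000157, limma), short of 2-fold. Irf7, the factor that amplifies interferon production, had means of 6.49, 6.0 and 5.82, and tumour differed from wild-type cells by -0.67 ± 0.10 (adjusted p = 3.80e-05, limma), also short of 2-fold. Oasl1, a translational repressor of Irf7, had means of 6.91, 6.80 and 7.08. Herc6, a ligase for Isg15 in the mouse, had means of 8.21, 8.52 and 8.23. It was the only member with its lowest mean in wild-type cells.

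**Figure D3:**
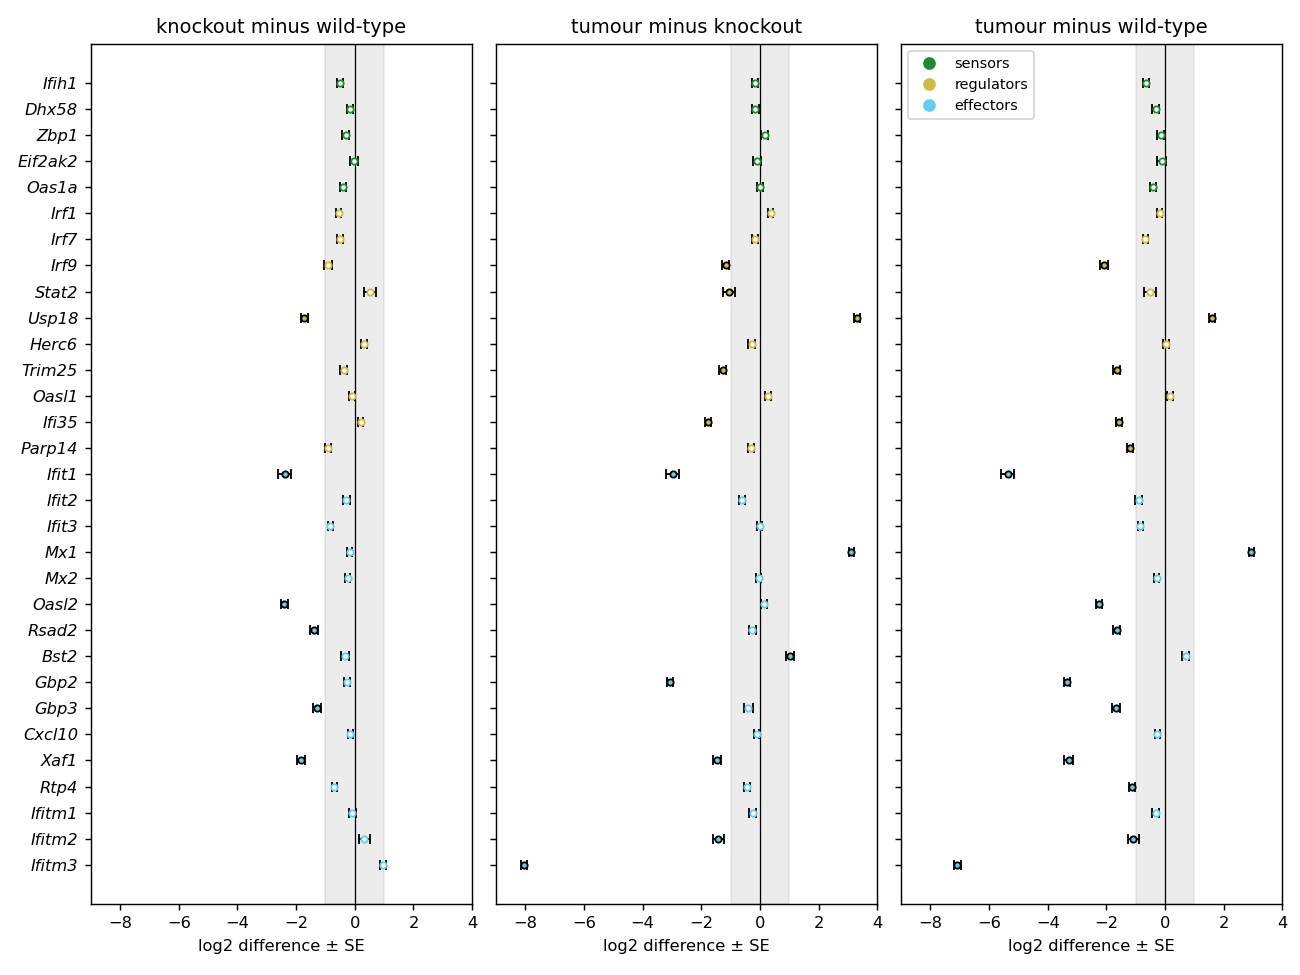
Log2 difference with its SE for each of the 31 genes in the 3 comparisons, coloured by role, with filled points for called genes and open points for the others. The grey band marks differences under 2-fold. Sensors stay within the band in every panel, while Ifitm3 reaches -8.05 and -7.09 in the tumour comparisons and Usp18 reaches 3.31 against knockout cells.

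The effectors, 16 of the 31 members, held most of the calls. Of these, 0 rose and 5 fell in knockout against wild-type cells, 2 rose and 5 fell in tumour against knockout cells, and 1 rose and 9 fell in tumour against wild-type cells. Those called lower are 31.25%, 31.25% and 56.25% of the effectors, against 10%, 40% and 40% of the regulators and 2.98%, 6.38% and 8.46% of all genes. Those called higher are 0%, 12.5% and 6.25% of the effectors, against 0%, 10% and 10% of the regulators and 1.9%, 7.79% and 8.09% of all genes. Their median differences were -0.31, -0.33 and -1.11.

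Ifit1, which binds viral RNA that lacks the cap modification of host mRNA, read 9.99, 10.32 and 9.95 in wild-type cells, 8.37, 7.43 and 7.30 in knockout cells and 4.73, 4.59 and 4.84 in tumour cells. The lines did not overlap, and all tumour arrays lay under the floor. Ifit1 was 5.25-fold lower in knockout than in wild-type cells (-2.39 ± 0.21, adjusted p = 6.89e-07, limma). In tumour cells Ifit1 was at least 5.85-fold below knockout cells (adjusted p = 1.76e-08, limma) and at least 30.7-fold below wild-type cells (adjusted p = 2.06e-11, limma). Its relatives were not called in any comparison. Ifit3 had means of 6.96, 6.13 and 6.12, with differences from wild-type cells of -0.83 ± 0.09 and -0.85 ± 0.09 that stayed under 2-fold. Ifit2, a further member of the family, had means of 5.48, 5.20 and 4.58, close to or under the floor. Within arrays, the Ifit1 minus Ifit3 difference was 3.13 ± 0.20 (SD, n = 3) in wild-type cells, 1.57 ± 0.67 in knockout cells and, with Ifit1 set at the floor, at most -0.97 in tumour cells. Relative to wild-type cells this difference changed by -1.56 in knockout cells and by -4.09 or lower in tumour cells. The smallest p that an exact two-sided permutation test of 3 against 3 arrays allows is 0.1, so such changes within a family are given without a call.

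Oasl2, an antiviral relative of the oligoadenylate synthetases, read 6.99, 7.02 and 7.01 in wild-type cells, 4.37, 4.67 and 4.80 in knockout cells and 4.66, 4.80 and 4.81 in tumour cells. It was above the floor in wild-type cells alone, at least 3.63-fold above each of the others (adjusted p = 4.62e-10 for the knockout and 1.72e-10 for tumour cells, limma). Oasl1, its neighbour on chromosome 5, was not called in any comparison. Within arrays, the Oasl2 minus Oasl1 difference was 0.10 ± 0.10 (SD, n = 3) in wild-type cells, and, with Oasl2 set at the floor, at most -1.65 in knockout cells and at most -1.93 in tumour cells.

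Rsad2, the enzyme viperin that makes a chain-terminating nucleotide, read 8.88, 9.09 and 8.80 in wild-type cells, 7.82, 7.44 and 7.32 in knockout cells and 7.14, 7.34 and 7.32 in tumour cells. The wild-type arrays stood above the rest, and the knockout and tumour arrays overlapped. Rsad2 was 2.63-fold lower in knockout cells (-1.40 ± 0.13, adjusted p = 9.91e-07, limma) and 3.15-fold lower in tumour cells (-1.66 ± 0.13, adjusted p = 3.77e-08, limma) than in wild-type cells. Xaf1, an antagonist of the apoptosis inhibitor XIAP, read 9.61, 9.74 and 9.60 in wild-type cells, 8.01, 7.53 and 7.92 in knockout cells and 6.41, 6.57 and 6.08 in tumour cells. The lines formed 3 steps without overlap, of 3.56-fold from wild-type to knockout line (-1.83 ± 0.14, adjusted p = 1.37e-07, limma) and 2.76-fold from knockout to tumour line (-1.46 ± 0.14, adjusted p = 4.45e-07, limma). From wild-type to tumour line Xaf1 was 9.81-fold lower (-3.29 ± 0.14, adjusted p = 4.35e-11, limma). The other probe set of Xaf1 had means of 6.57, 7.13 and 6.40, highest in knockout cells, so it did not follow the first step. Its fall from knockout to tumour cells was under 2-fold, and its wild-type and tumour means were close. The 9.81-fold difference is thus that of the brightest probe set alone. Averaging the probe sets of Xaf1 lost the knockout call (-0.64).

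Gbp2 and Gbp3 encode guanylate-binding proteins, GTPases that attack intracellular pathogens. Gbp2 read 8.33, 8.41 and 8.28 in wild-type cells, 8.20, 7.92 and 8.09 in knockout cells and 5.17, 4.88 and 4.93 in tumour cells, where 2 of 3 arrays lay under the floor. It was at least 7.53-fold lower in tumour than in knockout cells (-3.07 ± 0.11, adjusted p = 5.56e-12, limma) and at least 9.08-fold lower than in wild-type cells (-3.35 ± 0.11, adjusted p = 1.63e-12, limma). The brightest Gbp2 probe set is of a kind that may cross-hybridise, and its other probe set was also called lower in both tumour comparisons. Gbp3, which lies near Gbp2 on chromosome 3, read 6.25, 6.25 and 6.43 in wild-type cells, 5.33, 4.86 and 4.85 in knockout cells and 4.88, 4.54 and 4.44 in tumour cells. Its wild-type arrays alone were clear of the floor. Gbp3 was at least 2.14-fold lower in knockout cells, where 2 of 3 arrays lay under the floor (-1.29 ± 0.14, adjusted p = 6.19e-06, limma) and at least 2.23-fold lower in tumour cells (adjusted p = 9.56e-08, limma) than in wild-type cells.

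The interferon-induced transmembrane proteins block virus entry at membranes, and 1 of them, Ifitm3, gave the widest difference among the members. Ifitm3 read 12.26, 12.50 and 12.26 in wild-type cells, 13.26, 13.35 and 13.28 in knockout cells and 5.10, 5.50 and 5.16 in tumour cells. It was bright in both tracheal lines, highest in knockout cells, and at about the floor in tumour cells. Ifitm3 was at least 261-fold lower in tumour than in knockout cells (-8.05 ± 0.11, adjusted p = 7.24e-16, limma) and at least 134-fold lower than in wild-type cells (-7.09 ± 0.11, adjusted p = 1.62e-15, limma). All tumour arrays of Ifitm3 lay under the brightest control probe set. Between the knockout and wild-type lines its difference of 0.96 ± 0.11 (adjusted p = 1.46e-05, limma) was just short of 2-fold, and it passed, at 1.04, without wild-type replicate 2.

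Ifitm2, from the same cluster on chromosome 7, read 11.32, 11.20 and 11.16 in wild-type cells, 11.62, 11.64 and 11.39 in knockout cells and 10.23, 10.59 and 9.58 in tumour cells. The tumour arrays were the lowest and the most spread. Ifitm2 was 2.67-fold lower in tumour than in knockout cells (-1.41 ± 0.18, adjusted p = 1.24e-05, limma) and 2.13-fold lower than in wild-type cells (-1.09 ± 0.18, adjusted p = 0.00014, limma), and the latter call was lost without tumour replicate 3 (-0.81). Ifitm1, which lies between the other members of the cluster, had means of 6.83, 6.75 and 6.50 and was not called. Within arrays, the Ifitm3 minus Ifitm2 difference was 1.12 ± 0.18 (SD, n = 3) in wild-type cells, 1.75 ± 0.13 in knockout cells and, with arrays under the floor set at it, at most -4.87 in tumour cells. Tumour cells differed in it by -6.61 or lower from knockout cells and by -5.98 or lower from wild-type cells. For Ifitm3 minus Ifitm1 the corresponding changes were -7.78 and -6.75 or lower.

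Mx1, a dynamin-like GTPase that acts against influenza virus, went the other way. It read 4.17, 4.18 and 4.24 in wild-type cells, 4.02, 4.09 and 3.98 in knockout cells and 7.10, 7.18 and 7.13 in tumour cells. All arrays of the tracheal lines lay under the floor and all tumour arrays well above it. Mx1 was at least 3.97-fold higher in tumour cells than in each tracheal line (adjusted p = 3.85e-13 against the knockout and 5.29e-13 against wild-type cells, limma). RefSeq lists Mx1 and its paralogue Mx2 as transcribed pseudogenes in the reference mouse genome. Mx2 had means of 6.84, 6.59 and 6.56 and was not called.

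Bst2, or tetherin, which holds budding virus at the cell surface, had means of 6.77, 6.44 and 7.46. It was called higher in tumour than in knockout cells (1.03 ± 0.12, adjusted p = 5.13e-06, limma), at the edge of the 2-fold threshold. That call was lost without knockout replicate 1 (0.98), knockout replicate 2 (0.96), tumour replicate 1 (0.98) or tumour replicate 2 (0.95). Rtp4, an antiviral protein of the receptor-transporter family, had means of 7.55, 6.86 and 6.42. It was called lower in tumour than in wild-type cells (-1.13 ± 0.09, adjusted p = 5.54e-08, limma), which was lost when its probe sets were averaged (-0.54). Cxcl10, a chemokine that draws T cells, had means of 5.81, 5.65 and 5.54 and was not called.

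The rest of the pathway was read from lists of ligands, receptors, upstream sensors and inhibitors, without the members. Over all genes, 4.88% were called in knockout against wild-type cells, 14.2% in tumour against knockout cells and 16.6% in tumour against wild-type cells, and nothing particular to these short lists is read from their counts. Of 8 interferon genes measured, 0 were called in any comparison, and at an unadjusted p under 0.05 limma gave 0 higher and 1 lower in each. Ifnb1 had means of 5.66, 5.67 and 5.72 for wild-type, knockout and tumour cells, below the brightest of the control probe sets. In each line, 5 of the 8 (Ifnb1, Ifna1, Ifna2, Ifna5 and Ifnz) were above the floor on all arrays. The highest ligand means were 7.29, 7.35 and 7.21 in the same order of lines. Ifnk, Ifne, Ifnl2 and Ifnl3 were on the list but could not be read. The interferon alpha genes are close copies of each other, so their probe sets may share signal. Ifng and Ifna11 lay under the floor on all arrays.

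All 9 receptor chains and kinases measured were above the floor in each line. The type I receptor chains were not called: Ifnar1 had means of 8.66, 8.26 and 8.80, and Ifnar2 had means of 8.42, 8.02 and 8.75. Ifngr1, the ligand-binding chain for interferon gamma, had means of 8.11, 9.33 and 9.03 and was the only call in knockout cells, 2.34-fold above wild-type cells (1.23 ± 0.14, adjusted p = 1.03e-05, limma). In tumour against knockout cells 2 rose and 0 fell, namely Ifnlr1 (1.19 ± 0.11) and Il10rb (1.25 ± 0.10), which together form the receptor for interferon lambda. Against wild-type cells 2 rose and 0 fell, namely Il10rb (1.76 ± 0.10) and the kinase Jak2 (1.32 ± 0.10).

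Of 15 genes of nucleic acid sensing upstream of interferon, 1 rose and 0 fell in knockout against wild-type cells, 2 rose and 2 fell in tumour against knockout cells, and 2 rose and 1 fell in tumour against wild-type cells. Tlr3, the endosomal receptor for double-stranded RNA, had means of 8.55, 9.71 and 8.12, and rose in knockout cells (1.17 ± 0.13) and fell from knockout to tumour cells (-1.59 ± 0.13). Ddx58, which encodes RIG-I, had means of 9.92, 10.29 and 8.98 and fell from knockout to tumour cells (-1.31 ± 0.08, adjusted p = 5.12e-09, limma). The kinase Ikbke rose in tumour cells against both others (1.21 ± 0.09 and 1.92 ± 0.09), while the adaptor Ticam1 fell against wild-type cells (-1.23 ± 0.12). Aim2, a DNA sensor, lay under the floor in both tracheal lines and had a mean of 5.32 in tumour cells, at least 1.12-fold higher.

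Among 13 negative regulators, 0 were called in knockout against wild-type cells, where limma gave 1 higher and 5 lower at an unadjusted p under 0.05, and 1 rose and 1 fell in each tumour comparison. Socs3, an inhibitor of Jak kinases, had means of 10.26, 9.52 and 7.34 and fell in tumour cells against the knockout (-2.19 ± 0.10) and wild-type lines (-2.92 ± 0.10). Tnfaip3, an inhibitor of NF-kappa B, had means of 8.34, 9.01 and 11.50 and rose against both (2.49 ± 0.09 and 3.16 ± 0.09). The 6 other interferon regulatory factors and relatives measured gave 0 calls, and at an unadjusted p under 0.05 limma gave 1 higher and 0 lower, 2 and 2, and 1 and 1 in the 3 comparisons.

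**Figure D4:**
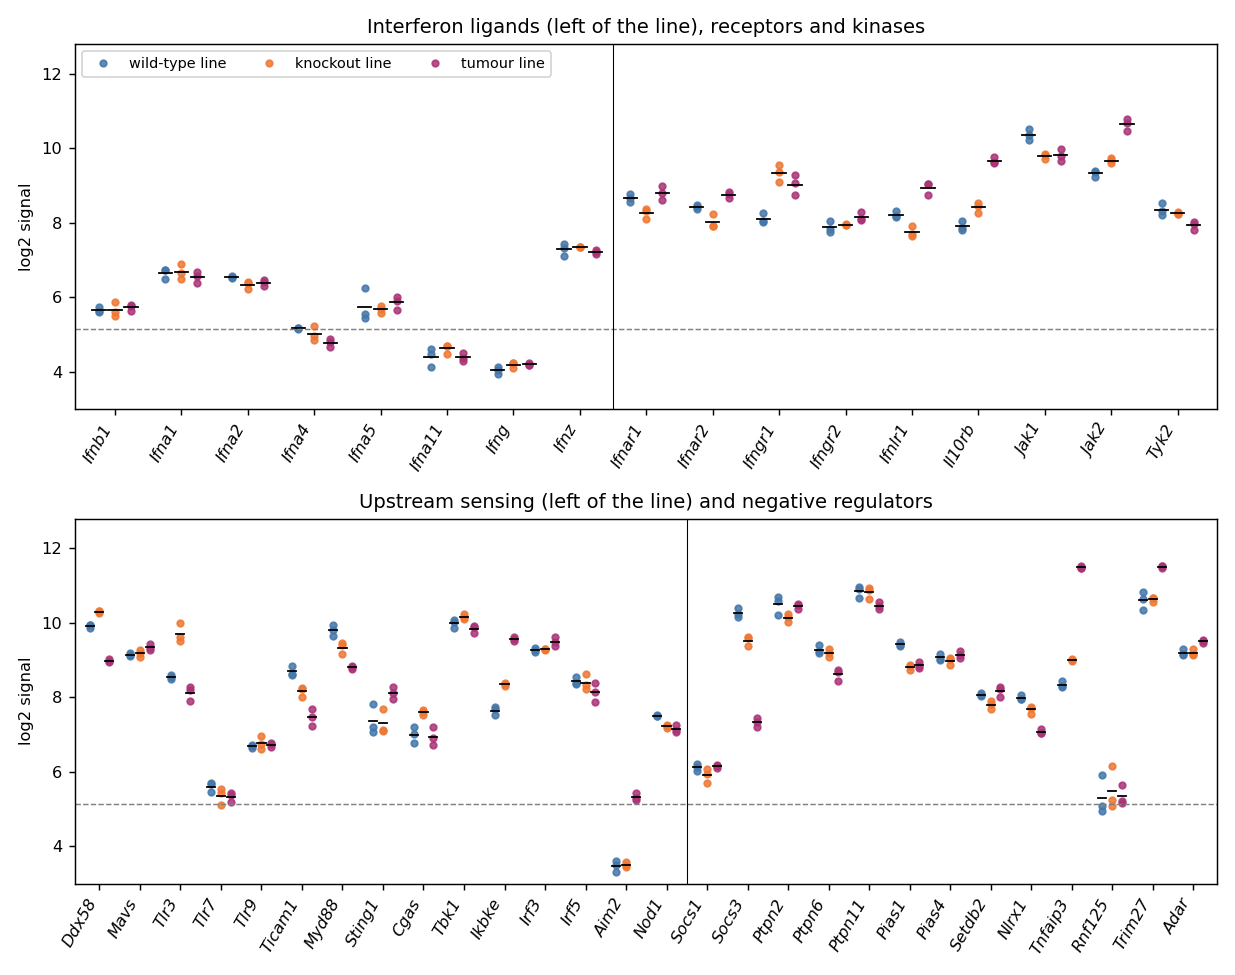
Log2 signal of interferon ligands, receptors and kinases (upper panel) and of upstream sensing genes and negative regulators (lower panel) on each of the 9 arrays. Points are arrays, short bars are means of 3 arrays per line, and the dashed line is the background floor of 5.15. Ligands lie near or under the floor or do not differ by 2-fold between lines, while Socs3 is lowest and Tnfaip3 highest in tumour cells.

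A further 54 interferon-stimulated genes outside the list gave 2 higher and 4 lower in knockout against wild-type cells, 6 higher and 2 lower in tumour against knockout cells, and 5 higher and 9 lower in tumour against wild-type cells. Those called lower are 7.41%, 3.70% and 16.7% of them, against 2.98%, 6.38% and 8.46% of all genes. Those called higher are 3.70%, 11.1% and 9.26%, against 1.9%, 7.79% and 8.09% of all genes. Their median differences were -0.18, -0.13 and -0.25. Ifi27 (-1.93 ± 0.09), Lgals9 (-1.74 ± 0.14) and Cmpk2 (-1.01 ± 0.12) fell in knockout cells, as did Ddx60, to under the floor. Apobec3, a DNA deaminase that restricts retroviruses, rose there (1.40 ± 0.10), with means of 7.75, 9.14 and 10.20 in the 3 lines, and Plscr1 did too (1.03 ± 0.16), with means of 7.22, 8.25 and 10.46. In tumour against knockout cells Lgals9 (2.95 ± 0.14), Plscr1 (2.21 ± 0.16) and Ifi47 (1.56 ± 0.14) rose, and Tor3a (-1.60 ± 0.10) fell. Against wild-type cells, tumour cells were lower in Ifi27, Oas1c, Parp9, Parp12, Dtx3l, Ddx60, Tor3a, Ifi204 and Ifi30. They were higher in Lgals9, Ifi47, Pml, Apobec3 and Plscr1. Of 4 more distant Ifitm relatives, Ifitm10 alone was called, lower in tumour than in knockout cells (-1.73 ± 0.12, adjusted p = 9.04e-09, limma).

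Leukocytes also express many of the members, so their markers were read in the same lines. Of 13 leukocyte markers, 0 were called in knockout against wild-type cells and in tumour against knockout cells, and 1, Cd68, was lower in tumour against wild-type cells, with means of 8.03, 7.71 and 6.92. Ptprc and Itgam lay under the floor in every line, while the other 11 markers were above it on all arrays of each line. The highest marker means were 8.03, 8.17 and 8.03 for wild-type, knockout and tumour cells. The source of this signal was not tested. The log2 of the summed marker signal was 10.42 to 10.50 on the wild-type arrays, 10.37 to 10.61 on the knockout arrays and 10.36 to 10.43 on the tumour arrays. Of 10 fibroblast and 8 endothelial markers, 0 were called in any comparison. Among them Col3a1, Fap, Tek, Emcn, Tie1 and Vwf lay under the floor in every line, where a call is hardly possible. Over all genes 4.88%, 14.2% and 16.6% were called, so little is read from the counts of these short marker lists.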

How the data were processed

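Per the labels' protocols, total RNA from 3 mouse cell lines was labelled with biotin by in vitro transcription and hybridised to Affymetrix arrays, 3 per line. The deposited values are log2 signals for 45101 probe sets. How the authors corrected, summarized and normalized the scans is not given in the sources used here. Genes were named through the platform annotation: 34945 probe sets carried 1 symbol, 932 several, 9160 none, and 64 were controls. Each of 18193 genes was represented by the brightest of its single-symbol probe sets over 9 arrays.

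A linear model over all 9 arrays was fitted with limma 3.58.1 (lmFit, eBayes, 6 residual degrees of freedom) in R 4.3.3, and p-values are two-sided. Calls need a Benjamini-Hochberg adjusted p under 0.05 and at least a 2-fold difference. In simulated data with 50 genes planted per fold, 0 were called at 1.5-fold, and at 2.5-fold 49, 48 and 50 in the knockout against wild-type, tumour against knockout and tumour against wild-type comparisons. The 2-fold threshold itself keeps 1.5-fold genes from being called. The simulated noise took its spread from these arrays and had no floor.

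The members, the lists and the floor were chosen with earlier results of these data known. All 33 listed genes were to be described, with values on every array for each sensor and for up to 8 called members per comparison with the largest difference. From each pathway list up to 5 called genes per comparison were named, and Ifnar1, Ifnar2 and Ifngr1 whatever their values. For the further interferon-stimulated genes, all calls in tumour against wild-type cells were named. Promoters were those of the called member with the largest difference in each role in the knockout against wild-type comparison, and of the single called member with the largest difference in each tumour comparison, where the RefSeq table holds them. Arrays give no counts, so their number limits the precision.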

Additional observations from a re-analysis of the deposited data

How the results depend on the processing

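Each result was recomputed under 19 alternatives, among them quantile normalization, centring, other probe set rules, other thresholds and leaving out each array. Of 33 called member differences, 8 lost their call in at least 1 of the 17 settings that leave the thresholds alone, and 0 reversed. Of the other 25, 19 kept it under each, and 6 kept it wherever computed but were left out by the filter on dim probe sets (Oasl2 and Gbp3 in knockout and tumour against wild-type, Mx1 in both tumour comparisons). Without a fold threshold, the knockout against wild-type comparison gave 2 members higher and 16 lower and 4805 genes in all, the tumour against knockout comparison 5, 14 and 8103, and the tumour against wild-type comparison 22 lower and 8614. At 1.5-fold the knockout comparison gave 1 higher and 10 lower, and 2178 genes, and the tumour comparisons 4881 and 5386. Averaging the probe sets of each gene gave a median of -0.28 in the knockout and -0.12 in the tumour against knockout comparison, from -0.33 and -0.24. Without the dimmest 40% of probe sets, 1 member was higher in the tumour against wild-type comparison; the filter itself removes dim members.

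Leaving out 1 array at a time, members higher, lower, their median and all genes called ranged over 0 to 1, 6 to 7, -0.38 to -0.26 and 885 to 904 in the knockout against wild-type comparison. For the tumour against knockout comparison the ranges were 2 to 3, 8 to 9, -0.29 to -0.19 and 2552 to 2637. For the tumour against wild-type comparison they were 2 to 2, 12 to 13, -0.77 to -0.66 and 2993 to 3082. Deviations of same-numbered arrays correlated weakly (-0.14 to 0.12), and those of differently numbered arrays gave -0.25 to 0.23. With 3 arrays a line, this cannot show whether same-numbered arrays shared a batch. The main model did not pair them. With the replicate number as a block, 6, 9 and 13 members were lower and 888, 2578 and 3012 genes were called, as without it. Each line holds 1 array of each number, so the block leaves the log2 differences unchanged and could alter calls only through the spread. Signals near the floor limit the folds of Ifit1, Ifitm3, Gbp2, Gbp3, Oasl2 and Mx1.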
